A study of Mus musculus with 25 samples.

Results

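The osteoblast core genes are 10 genes with established roles in bone formation, Runx2, Sp7, Alpl, Smpd3, Phex, Ibsp, Spp1, Dmp1, Ifitm5 and Panx3, and they were found by symbol in a table of 37406 genes. They occupy 11 rows, because Spp1 is listed as 2 rows, of which the second was listed at 0 in all 25 libraries and was left out of the comparisons. RNA was taken by laser capture microdissection from the palate of wild type CD1 mouse embryos at stage E14.5, counted in days of gestation, and it was amplified and sequenced. The 8 compartments were medial, lateral, oral and nasal, each taken at an anterior and a posterior level, with 4 libraries of the anterior nasal compartment and 3 of every other. All 25 libraries are of the same strain, stage and genotype, so the only comparisons are of position. Captured tissue holds several cell types, and a higher level from more cells of a type cannot be told apart from more RNA per cell.

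The bony palate forms by intramembranous ossification, in which condensed mesenchyme of neural crest origin turns into osteoblasts without a cartilage template. Runx2 is the transcription factor that commits mesenchyme to this lineage, and Sp7 (osterix) acts after it and is needed for osteoblasts to form. Committed cells then make the enzymes of mineralisation, among them alkaline phosphatase, and secrete a matrix rich in type I collagen and acidic glycoproteins. Genes such as Dmp1, Phex, Sost and Mepe are best known from cells that become embedded in mineralised bone.

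Levels are given in RPKM (reads per kilobase of transcript, scaled to library size). Scaling by length allows only a rough order of genes, since the RNA was amplified and duplicated reads were removed. The depth implied by the RPKM values was 1.64 to 6.56 M reads a library, with a median of 3.27 M. This is below the average number of reads a sample that the study states. At the implied depths 1 read on a transcript of 2000 bases is worth 0.0763 to 0.305 RPKM. Values well under 1 RPKM therefore rest on few reads. Differences are on the log2 scale of RPKM + 0.1, with a standard error (SE), a 95% interval and an adjusted p-value from limma over all genes past an expression minimum, which was 5 RPKM in at least 3 of the compared libraries, or 10 RPKM in 6 for all posterior against all anterior libraries. The threshold is an adjusted p under 0.05. Genes with an unadjusted limma P under 0.05 and a fold change over 2 were counted beside it, and these cut-offs are called the study's thresholds, although the study does not say whether its P was adjusted and used a pooled test for the anterior-posterior axis. Sequencing runs are named in the column headers of the study's supplementary tables, not in the labels.

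The levels of 7 genes, Runx2, Sp7, Alpl, Smpd3, Ibsp, Ifitm5 and Panx3, were higher in each of the 3 posterior nasal libraries than in each of the other 22 libraries. Of 11913 genes with at least 5 RPKM in 3 or more of the 25 libraries, 1.15% had this pattern. The other members, Spp1, Dmp1 and Phex, were low in that compartment and in almost every other library. The order of levels in the posterior nasal compartment, by median, was Ibsp 152 RPKM, Alpl 113 RPKM, Runx2 97.1 RPKM, Ifitm5 84.6 RPKM, Sp7 83.6 RPKM, Panx3 58.5 RPKM and Smpd3 27.2 RPKM.

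**Figure D1:**
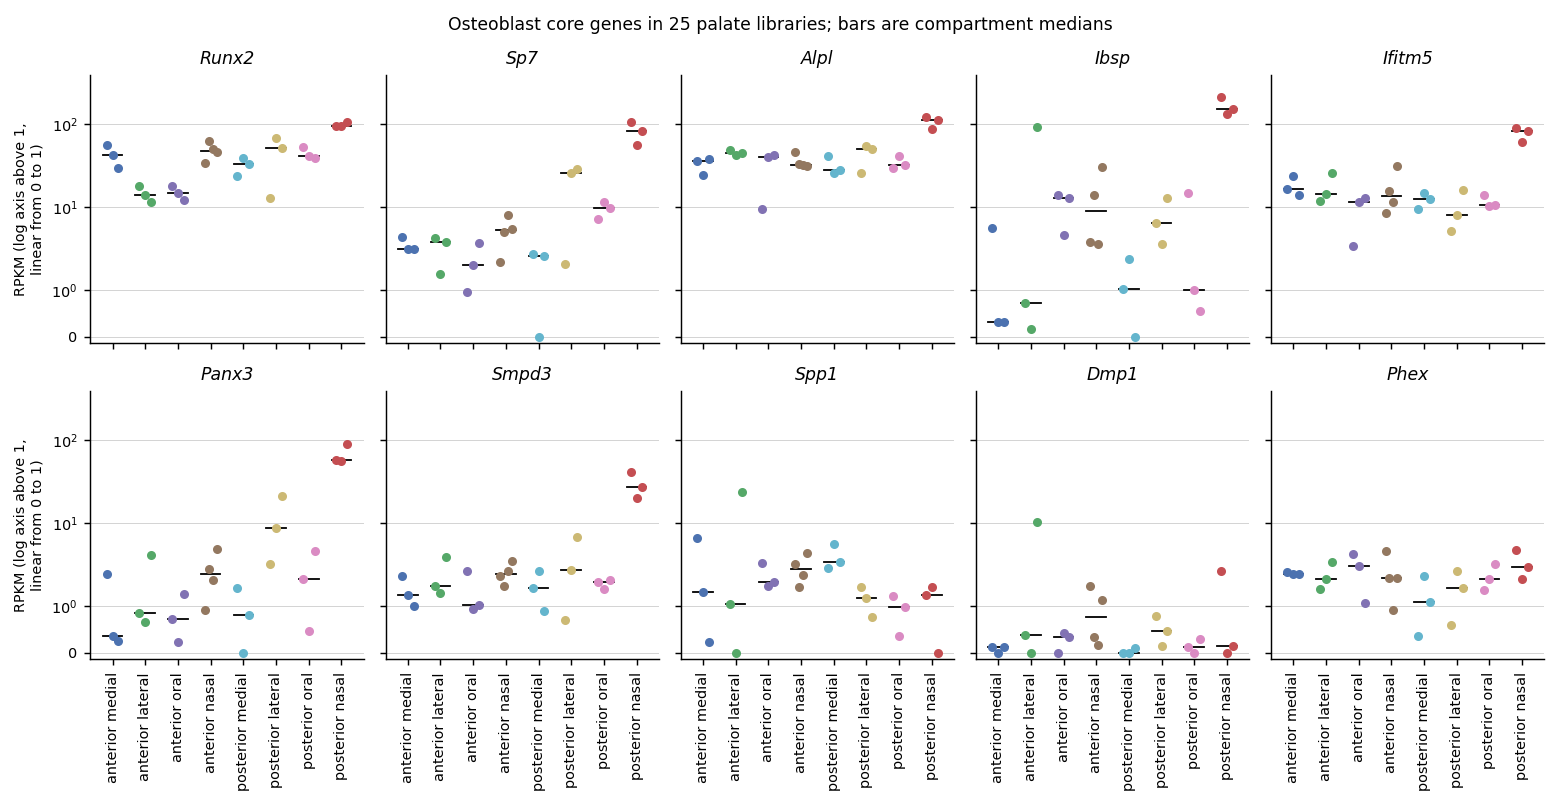
RPKM of the 10 osteoblast core genes (a panel each, log axis above 1 RPKM and linear below) in the 25 libraries by compartment, with a point per library and a bar at each median. The posterior nasal points, at the right of each panel, lie above all others for 7 genes, while those of Spp1, Dmp1 and Phex do not, and 1 anterior lateral library is high for Ibsp, Spp1 and Dmp1.

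The stretches before the start of Ibsp, Ifitm5 and Runx2 are shown because these genes were high together in the posterior nasal compartment. They are the 250 bases upstream of a RefSeq start (GRCm38.p6), on the strand of the gene and 5′ to 3′, at chr5:104299037-104299286 (plus strand) for Ibsp, chr7:140950244-140950493 (minus strand) for Ifitm5 and chr17:44814628-44814877 (minus strand) for Runx2. Capitals mark the core recognised by RUNX factors, TGTGGT or ACCACA on the other strand.
Ibsp: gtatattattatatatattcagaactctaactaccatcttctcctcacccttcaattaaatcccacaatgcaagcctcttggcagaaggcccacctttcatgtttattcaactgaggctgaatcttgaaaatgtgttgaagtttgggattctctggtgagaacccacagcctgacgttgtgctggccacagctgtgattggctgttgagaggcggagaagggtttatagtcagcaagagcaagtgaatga
Ifitm5: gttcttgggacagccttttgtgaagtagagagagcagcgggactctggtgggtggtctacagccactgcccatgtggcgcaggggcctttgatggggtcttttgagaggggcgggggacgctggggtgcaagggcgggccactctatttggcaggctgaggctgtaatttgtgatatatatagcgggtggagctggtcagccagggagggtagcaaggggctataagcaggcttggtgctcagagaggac
Runx2: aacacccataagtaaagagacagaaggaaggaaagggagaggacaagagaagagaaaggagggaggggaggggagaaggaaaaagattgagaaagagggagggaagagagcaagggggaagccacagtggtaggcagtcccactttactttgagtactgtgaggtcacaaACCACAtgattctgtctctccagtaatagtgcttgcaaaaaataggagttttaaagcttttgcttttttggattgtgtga

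The Runx2 stretch holds 1 such core, 80 bases before the start, and those of Ibsp and Ifitm5 hold none in these 250 bases. Of the 10 stretches found for 7 of the genes, 3 hold the core (Runx2, Spp1 and Dmp1), as do 14.05% of 32851 stretches of the same length before all listed starts. The table's own positions are in mm9, where Runx2 is at chr17:44740950-44951746, Ibsp at chr5:104728306-104740491 and Ifitm5 at chr7:148134861-148136138.

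Runx2, the commitment factor, was present in all 25 libraries. It stood at 97.1, 96.7 and 109 RPKM in posterior nasal replicates 1 to 3. The next levels by median were 52.6 RPKM in the posterior lateral, 48.4 RPKM in the anterior nasal, 43.3 RPKM in the anterior medial, 42.1 RPKM in the posterior oral and 33.0 RPKM in the posterior medial compartment, and neighbours in this order overlapped. The lowest levels were 12.4 to 17.96 RPKM in the anterior oral and 11.6 to 18.1 RPKM in the anterior lateral compartment. These low compartments did not overlap with the posterior medial one above them, which began at 23.7 RPKM.

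Sp7 had a narrower distribution than Runx2. It stood at 108, 56.5 and 83.6 RPKM in the posterior nasal libraries and at 7.26, 11.5 and 9.96 RPKM in the posterior oral ones. All 13 anterior libraries lay between 0.962 and 8.03 RPKM, with a median of 3.69 RPKM. Posterior lateral replicates 2 and 3 stood between these ranges, at 25.7 and 29.3 RPKM, while replicate 1 of that compartment stood at 2.08 RPKM. The ratio of Runx2 to Sp7 was 0.896, 1.71 and 1.30 in the posterior nasal libraries and 1.80 to 18.7, with a median of 7.36, in the 21 other libraries that held Sp7. In posterior medial replicate 2 Sp7 was listed at 0 beside 39.2 RPKM of Runx2. This library had the fewest genes at 5 RPKM or more, 8651 against 9344 to 10504 in the others, and Panx3 was also at 0 there.

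**Figure D2:**
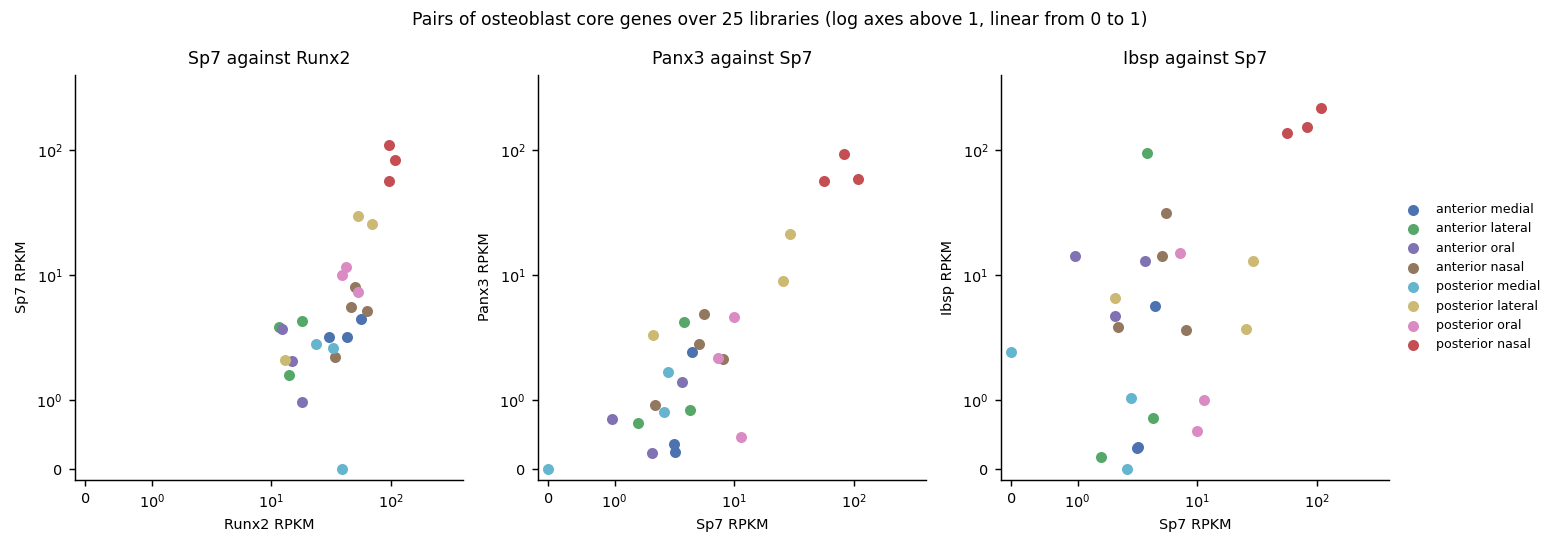
Pairs of osteoblast core genes in the 25 libraries, with a point per library coloured by compartment and RPKM on both axes (log above 1, linear below). Sp7 spreads widely at similar Runx2, Panx3 is higher where Sp7 is higher outside the posterior nasal libraries too, and Ibsp is high in 1 anterior lateral library whose Sp7 is 3.83 RPKM.

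Alpl encodes tissue-nonspecific alkaline phosphatase, which removes the mineralisation inhibitor pyrophosphate. It stood at 125, 88.0 and 113 RPKM in the posterior nasal libraries and at 29.9, 41.6 and 32.9 RPKM in the posterior oral ones. Elsewhere it was broadly present, and the other 22 libraries lay between 9.70 and 55.05 RPKM. Smpd3, a neutral sphingomyelinase needed for normal mineralisation, stood at 42.0, 20.1 and 27.2 RPKM in the posterior nasal libraries and at most at 6.84 RPKM, in posterior lateral replicate 3, in the others. Phex, an endopeptidase of phosphate handling, lay between 0.352 and 4.84 RPKM over all libraries, and its compartments all overlapped with their neighbours in order.

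Ibsp, bone sialoprotein, is an acidic glycoprotein of the mineralising matrix. It stood at 215, 135 and 152 RPKM in the posterior nasal libraries and at 14.9, 1.00 and 0.555 RPKM in the posterior oral ones. In the anterior nasal libraries it stood at 3.81, 14.1, 3.63 and 31.0 RPKM and in the anterior oral ones at 14.0, 4.69 and 12.96 RPKM. These anterior groups overlapped, and posterior oral replicate 1 lay with them, above the other posterior oral libraries.

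Ibsp lies on chromosome 5 among genes of the same family of acidic matrix proteins, which run in the table (mm9) from Dspp at chr5:104599731-104609146 through Dmp1, Ibsp and Mepe to Spp1 at chr5:104864130-104870072. In the posterior nasal libraries the neighbours of Ibsp were low. Spp1, osteopontin, stood at 1.38, 1.72 and 0 RPKM there, and Dmp1 at 2.69, 0 and 0.145 RPKM. Dspp stood at most at 0.111 RPKM. Mepe stood at 8.23, 0.463 and 0 RPKM, so that posterior nasal replicate 1 held the highest Mepe of all 25 libraries. Over the whole series Spp1 reached 5 RPKM in anterior lateral replicate 3, anterior medial replicate 1 and posterior medial replicate 2, and Dmp1 in anterior lateral replicate 3 alone.

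Ifitm5, a short membrane protein largely restricted to osteoblasts, stood at 90.2, 61.2 and 84.6 RPKM in the posterior nasal libraries and at 14.2, 10.5 and 10.7 RPKM in the posterior oral ones. The other compartments had medians of 8.16 to 16.5 RPKM and overlapped with their neighbours in order. Panx3, a channel protein of osteoblasts and of maturing cartilage cells, stood at 58.5, 55.9 and 91.7 RPKM in the posterior nasal libraries and at 2.15, 0.463 and 4.63 RPKM in the posterior oral ones. Its next level was that of the posterior lateral libraries, at 3.28, 8.83 and 21.2 RPKM. The share of the summed compartment means that lay in the posterior nasal compartment was 76.8% for Panx3, 70.0% for Ibsp, 66.3% for Smpd3 and 65.0% for Sp7, against 44.98% for Ifitm5, 29.7% for Alpl and 29.3% for Runx2.

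The oral and nasal compartments were compared to ask which genes differ along that axis of the shelf. In the posterior palate 7 of the 10 genes passed the expression minimum, and each of the 7 was higher in the nasal compartment at an adjusted p under 0.05, against 0.661% of the 10586 genes tested that were called in this direction. By the study's thresholds the members numbered 7 as well, against 1.52% of the genes. Panx3 and Smpd3 passed the minimum only through the nasal libraries, so that a difference was built into their entry. Ibsp reached 5 RPKM in 1 oral library beside the 3 nasal ones, and Spp1, Dmp1 and Phex did not pass.

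The largest differences were those of Ibsp, oral minus nasal -6.22 (SE 0.999, 95% interval -8.51 to -3.93, adjusted p = 0.0284), and Panx3, -5.21 (SE 0.672, adjusted p = 0.0143). Smpd3 differed by -3.84 (SE 0.293, adjusted p = 0.00175) and Sp7 by -3.08 (SE 0.298, adjusted p = 0.0046). Ifitm5 differed by -2.72 (SE 0.242, adjusted p = 0.00326), Alpl by -1.64 (SE 0.234, adjusted p = 0.0197) and Runx2 by -1.18 (SE 0.211, adjusted p = 0.0419). On a linear scale these are 74.4-fold for Ibsp, 8.43-fold for Sp7 and 2.26-fold for Runx2. The median over all genes tested was -0.01.

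Within the pair of libraries of 1 sequencing run, oral replicate 1 and nasal replicate 1, the differences were -3.85 for Ibsp, -3.88 for Sp7 and -0.87 for Runx2. Within a second run, with oral replicates 2 and 3 and nasal replicate 2, they were -7.32 for Ibsp, -2.39 for Sp7 and -1.25 for Runx2. When all 25 libraries entered 1 fit, 3 of the 7 members had an adjusted p under 0.05 (Ifitm5, Panx3 and Smpd3), and after adding a term for the run 2 did (Ifitm5 and Smpd3). Runx2 passed the threshold in none of the 6 fits that left out 1 library (adjusted p 0.0649 to 0.264). Alpl passed it in 1 of the 6 (adjusted p 0.0359 to 0.135). Ibsp did in the fit without oral replicate 1 alone, where it differed by -7.60. Sp7 and Ifitm5 passed it in all 6.

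**Figure D3:**
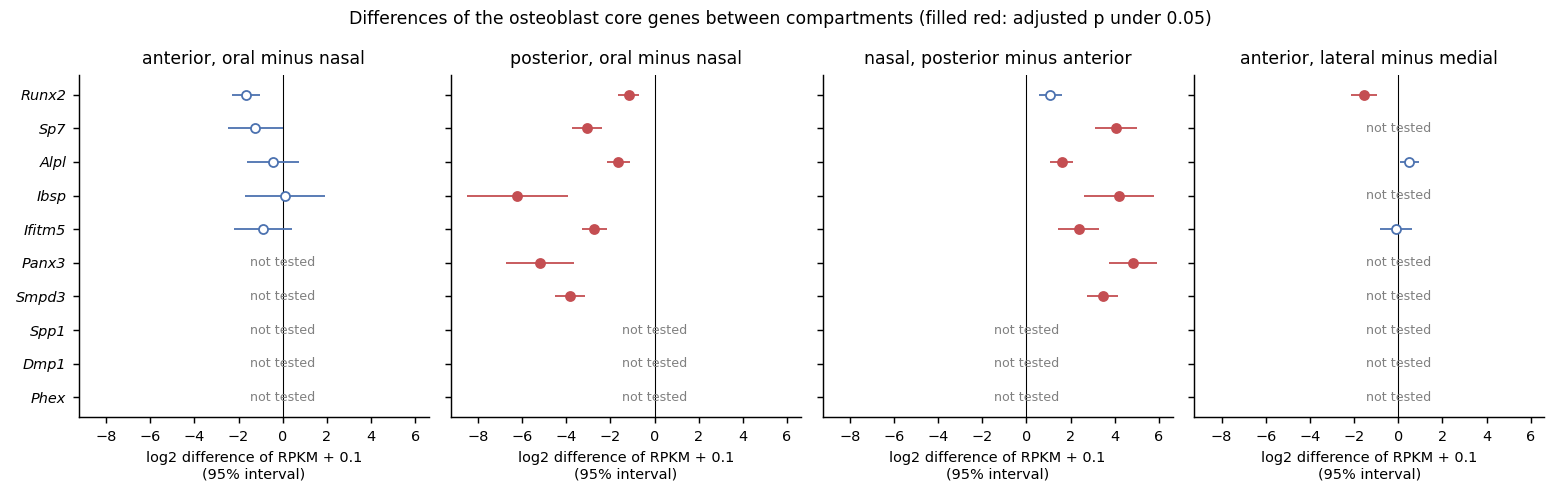
Log2 differences of RPKM + 0.1 with 95% intervals for each osteoblast core gene (rows) in 4 comparisons (panels), with filled red points at an adjusted p under 0.05 and genes below the expression minimum written as not tested. The posterior panel shows 7 genes below zero, from -6.22 for Ibsp to -1.18 for Runx2, and the anterior panel none past the threshold.

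In the anterior palate 5 genes passed the minimum, Sp7 only through the nasal libraries, and limma called 0 of them at an adjusted p under 0.05, as it called 0.0% of the 10684 genes tested. At an unadjusted P under 0.05 there were 2 of the 5, both higher in the nasal compartment and both past the study's fold threshold, against 0.786% of the genes in that direction. They were Runx2, -1.66 (SE 0.278, 95% interval -2.30 to -1.02, adjusted p = 0.2), and Sp7, -1.24 (SE 0.534, 95% interval -2.46 to -0.01, adjusted p = 1.0). Runx2 stood at 34.3, 63.1, 50.3 and 46.4 RPKM in the nasal libraries and at 17.96, 15.03 and 12.4 RPKM in the oral ones. These groups did not overlap, as for 3.67% of the 10684 genes tested. Runx2 was lower in the oral library in each of the 3 sequencing runs that held both compartments, by -1.37, -1.74 and -1.90.

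Ibsp showed no such direction in the anterior palate, at 0.10 (95% interval -1.71 to 1.91). Ifitm5 differed by -0.89 (95% interval -2.21 to 0.43) and Alpl by -0.46 (95% interval -1.64 to 0.71), and the sign of the Alpl value rested on anterior oral replicate 1, the shallowest library, without which it was 0.24. The intervals of Ibsp, Ifitm5 and Alpl in the anterior palate therefore include zero.

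Whether the oral-nasal difference itself differed between the levels of the palate was tested in 1 fit of the 13 oral and nasal libraries. No member of the 7 tested passed an adjusted p under 0.05 by limma, and 0.035% of 11442 genes did. At an unadjusted P under 0.05 and over 2-fold there were 5 of 7, each with a larger nasal excess in the posterior palate, against 0.839% of genes. Panx3 and Smpd3, among these 5, reached 5 RPKM in the posterior nasal libraries alone and so passed the minimum only through them. The values were Ibsp -6.32 (SE 1.46, adjusted p = 0.253), Panx3 -3.52 (SE 1.06, adjusted p = 0.629), Smpd3 -3.03 (SE 0.532, adjusted p = 0.103), Sp7 -1.84 (SE 0.69, adjusted p = 1.0) and Ifitm5 -1.83 (SE 0.712, adjusted p = 1.0). Runx2 had a value of 0.48 (95% interval -0.26 to 1.22), so that its oral-nasal differences at the anterior and posterior levels, -1.66 and -1.18, were not told apart. Without posterior nasal replicate 1 the count was 1 of 5 tested and without replicate 2 or 3 it was 3 of 5, since Panx3 and Smpd3 were then below the minimum, and without anterior oral replicate 3 it was 3 of 7.

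The nasal compartments of both levels were compared directly, with the same posterior nasal libraries as above. At an adjusted p under 0.05, 6 of the 7 members tested were higher in the posterior one, against 1.1% of 10629 genes, and 7 of 7 by the study's thresholds, against 3.46%. The values were 4.81 for Panx3 (SE 0.477, adjusted p = 0.00206), 4.197 for Ibsp (SE 0.698, adjusted p = 0.0203), 4.05 for Sp7 (SE 0.418, adjusted p = 0.00215), 3.46 for Smpd3 (SE 0.307, adjusted p = 0.00113), 2.36 for Ifitm5 (SE 0.412, adjusted p = 0.0222) and 1.60 for Alpl (SE 0.225, adjusted p = 0.00882). Runx2 had 1.08 (SE 0.232, adjusted p = 0.0532), and its groups did not overlap, as for 20.3% of the genes tested. Panx3 and Smpd3 again passed the minimum only through the posterior nasal libraries. The median over all genes tested was 0.12 in this comparison.

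A fit of all libraries with a term for the run called 0 of the 7 members, with values of 1.24 to 4.46 and adjusted p-values of 0.0549 and above. In the 1 run that held both compartments, with anterior nasal replicate 4 and posterior nasal replicate 1, the differences were 4.27 for Sp7, 3.56 for Panx3, 3.55 for Smpd3, 2.79 for Ibsp, 1.98 for Alpl, 1.49 for Ifitm5 and 1.06 for Runx2.

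The medial and lateral compartments were compared along the width of the shelf. No sequencing run held both medial and lateral libraries, so position and run cannot be told apart in any comparison of these compartments. In the anterior palate Runx2 was higher in the medial compartment, at 56.3, 43.3 and 30.2 RPKM against 18.1, 14.1 and 11.6 RPKM in the lateral one. Lateral minus medial this was -1.54 (SE 0.254, adjusted p = 0.0248), and it was the only call among the 3 members tested, against 1.08% of 10427 genes called in this direction. By the study's thresholds it was 1 of 3 as well, against 0.959%. It was not called in the fit of all 25 libraries or without anterior lateral replicate 2 or 3 or anterior medial replicate 1 or 2. Alpl had 0.50 (SE 0.185, adjusted p = 0.258) and Ifitm5 -0.08 (SE 0.311). Sp7 overlapped, at 4.40, 3.15 and 3.19 RPKM medially and 4.25, 1.58 and 3.83 RPKM laterally, and was below the minimum.

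The anterior lateral compartment held a single library that stood apart. Replicate 3 had 93.9 RPKM of Ibsp, against 0.734 and 0.170 RPKM in replicates 1 and 2. It also had 24.2 RPKM of Spp1 against 1.08 and 0 RPKM, and 10.6 RPKM of Dmp1 against 0.390 and 0 RPKM. These Spp1 and Dmp1 values were the highest of the 25 libraries, and the Ibsp value was exceeded in the posterior nasal libraries alone. Among 10334 genes with at least 5 RPKM in that library, ordered by the gap to the higher of the other lateral libraries, Ibsp came at place 2, Dmp1 at 11 and Spp1 at 12.

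The same library did not hold the other genes of the posterior nasal pattern at such levels. Sp7 stood at 3.83 RPKM, Smpd3 at 3.89 RPKM, Panx3 at 4.16 RPKM and Runx2 at 11.6 RPKM, which was its lowest value of all 25 libraries. Ifitm5, at 26.2 RPKM, was above the 11.99 and 14.7 RPKM of replicates 1 and 2. Bglap, osteocalcin, named here after its values were seen, stood at 5.60 RPKM in this library and at most at 1.18 RPKM in the other 24. The ratio of Ibsp to Sp7 was 24.5 there and 1.82 to 2.39 in the posterior nasal libraries.

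This library was sequenced in another run than replicates 1 and 2, together with posterior lateral replicates 2 and 3 and posterior nasal replicate 3. Shh and Sprr1a, also named after their values were seen, were high in all 4 libraries of that run, Shh at 15.4, 15.3, 16.8 and 15.3 RPKM against at most 0.957 RPKM in the other 21, whatever the compartment. Posterior lateral replicates 2 and 3 of the same run had 3.65 and 12.9 RPKM of Ibsp and at most 1.27 RPKM of Spp1. The sum of the 5 skeletal muscle markers was 22.5 RPKM in anterior lateral replicate 3 against 2.39 and 6.13 RPKM in the others, and that of the 7 epithelium markers was 39.1 RPKM against 55.04 and 33.8 RPKM. The part of these tissues, or of the run, in the Ibsp, Spp1 and Dmp1 levels was not tested.

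**Figure D4:**
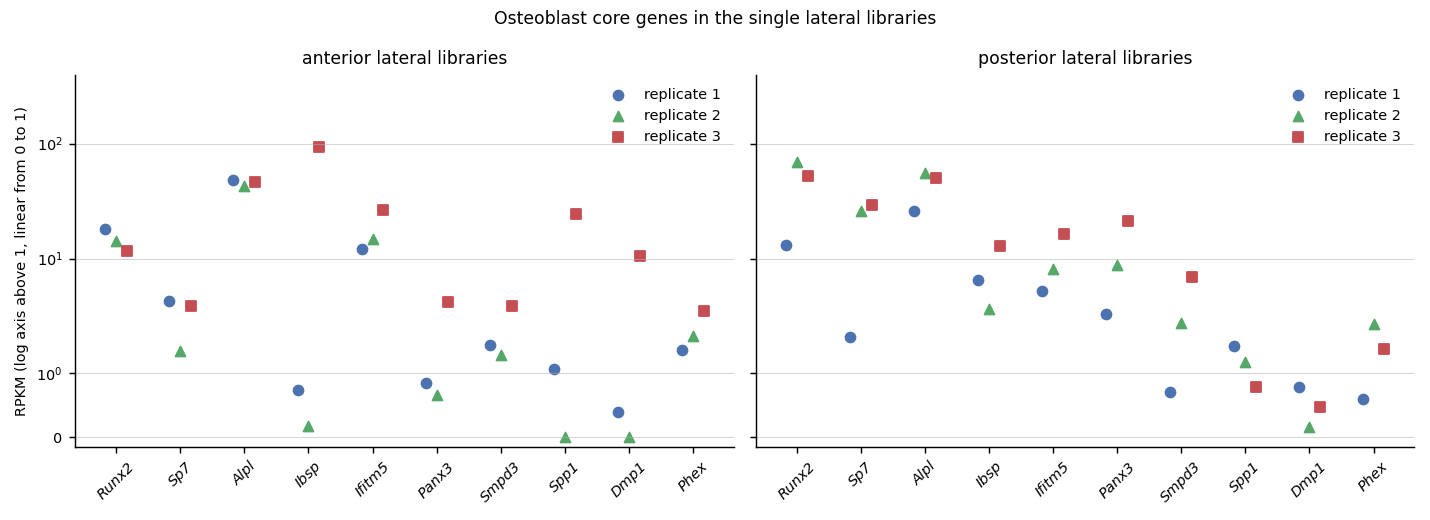
RPKM of the 10 osteoblast core genes in the 3 anterior lateral (left) and 3 posterior lateral (right) libraries, with a marker per replicate on a log axis that is linear below 1. Anterior lateral replicate 3 stands apart for Ibsp, Spp1 and Dmp1, and posterior lateral replicate 1 lies below replicates 2 and 3 for Runx2, Sp7, Alpl, Ifitm5, Panx3, Smpd3 and Phex.

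In the posterior palate limma called 0 of the 3 members tested between the lateral and medial compartments, as it called 0.0% of 10324 genes. At an unadjusted P under 0.05 there were 0 of the 3, against 159 of the 10324 genes. By the study's thresholds there were 0 of the 3 as well, against 1.12% of genes. Runx2 stood at 13.1, 69.2 and 52.6 RPKM laterally and at 23.7, 39.2 and 33.0 RPKM medially, with a difference of 0.21 (SE 0.657, 95% interval -1.37 to 1.80). Lateral replicate 1, from a run of its own, set this spread: without it the difference was 0.95 (SE 0.374, adjusted p = 0.985). Without lateral replicate 2 it turned to -0.25 and without lateral replicate 3 to -0.05.

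Posterior lateral replicate 1 was the lowest of its compartment for 7 of the genes, and how often this held over all genes was not counted. Beside Runx2 the 7 included Sp7, at 2.08 RPKM against 25.7 and 29.3 RPKM, Smpd3, at 0.714 against 2.77 and 6.84 RPKM, and Alpl, at 26.1 against 55.05 and 50.6 RPKM. Ibsp, at 6.55 RPKM, lay between replicates 2 and 3. The sum of the 5 skeletal muscle markers was 131 RPKM in this library, the highest of the 25, against 14.3 and 26.3 RPKM in the other posterior lateral libraries, with all 5 above 0. The part of muscle tissue, or of the run, in the lower levels was not tested.

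The 3 members tested overlapped between these compartments, and Ibsp, Panx3, Dmp1 and Spp1, below the minimum and untested, did not. Of the 10324 genes tested 6.62% did not overlap, a share that leaves out genes below the minimum. Panx3 lay at 3.28 to 21.2 RPKM laterally and 0 to 1.68 RPKM medially, and Ibsp at 3.65 to 12.9 RPKM and 0 to 2.39 RPKM. Spp1 had the opposite direction, at 0.779 to 1.73 RPKM laterally and 2.88 to 5.66 RPKM medially. Dmp1 stayed under 1 RPKM in both.

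For the anterior-posterior axis, the 12 posterior libraries were set against the 13 anterior ones, over genes with at least 10 RPKM in 6 or more libraries. Of the 5 members past this minimum limma called 0, against 3.32% of 8608 genes, and 1, Runx2, had an unadjusted P under 0.05. By the study's thresholds there were 0 of 5, against 1.75% of genes. Runx2 had 0.82 (SE 0.339, adjusted p = 0.231), Sp7 1.51 (SE 0.766, adjusted p = 0.352), Ibsp 0.61 (SE 1.14, adjusted p = 0.862), Alpl 0.46 (SE 0.272, adjusted p = 0.459) and Ifitm5 0.36 (SE 0.416, adjusted p = 0.75), and both groups overlapped for each. Sp7 reached 10 RPKM in posterior libraries alone, with at most 8.03 RPKM in the anterior ones, so that a difference was built into its entry. Posterior medial replicate 2, where Sp7 was listed at 0 and the fewest genes reached 5 RPKM, decided the Sp7 call, which without it was 2.11 with an adjusted p of 0.0256. Without the 3 posterior nasal libraries, a choice made after seeing the data, Ibsp turned to -0.96, Ifitm5 to -0.35, and Runx2 and Alpl fell to 0.46 and 0.06. Sp7 was then below the minimum.

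The levels of the members across libraries were also set beside each other. Over the 25 libraries, on the log2 scale, Sp7 and Panx3 had a Pearson r of 0.88, and 0.76 over the 22 libraries outside the posterior nasal compartment. For Runx2 and Sp7 the values were 0.64 and 0.40, and for Ibsp and Sp7 0.51 and 0.13. Ibsp went with Dmp1 (0.47 and 0.60) and Spp1 (0.19 and 0.55) more closely outside the posterior nasal libraries, where anterior lateral replicate 3 holds all 3 highest values. Posterior medial replicate 2 was listed at 0 for both Sp7 and Panx3, a point at the floor that enters their r. By rank (Spearman) the values were 0.76 and 0.65 for Sp7 and Panx3. They were 0.75 and 0.63 for Runx2 and Sp7, and 0.44 and 0.18 for Ibsp and Sp7. All of these are descriptions, since libraries of a compartment share their tissue and the posterior nasal ones form a group apart.

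Among 11913 genes, those whose log2 levels were most like Sp7 over the 25 libraries were Sox6 (r = 0.94), B3gat1 (0.91), Cmya5 (0.89), Wwp2 (0.89) and Pdzrn4 (0.87), and over the 22 other libraries their r was 0.78 to 0.90. Most like Ibsp were Hrc (0.88), Car3 (0.79), Slc13a5 (0.78), Gm10629 (0.77) and Snhg11 (0.74), with 0.58 to 0.81 outside the posterior nasal libraries. Most like Runx2 were Col9a3 (0.90), Ldha, Tnn, Fgfr2 and Irx5 (0.87 to 0.85), with 0.77 to 0.87 outside them. Sox6, a transcription factor best known from cartilage, stood at 23.2 to 31.5 RPKM in the posterior nasal libraries. In posterior medial replicate 2 it was listed at 0, as Sp7 was, and this point at the floor enters their r.

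Among 23 other regulators of bone formation, 17 were tested between the posterior oral and nasal compartments, of which 6 were higher in the nasal one, against 0.661% of all genes, and none was higher in the oral one. The median was -0.42, against -0.01 over all genes. Dlx3 and 1 other of the 6 reached 5 RPKM in the nasal libraries alone, so that a difference was built into their entry. Dlx3 (-5.14, adjusted p = 0.0256), a homeobox factor, stood at 6.58 to 29.5 RPKM nasally and at most at 0.559 RPKM orally. Tcf7 (-2.36, adjusted p = 0.00326), a mediator of Wnt signalling, and Dlx5 (-2.35, adjusted p = 0.0227), an activator of osteoblast genes, followed. Bmp4, named after its values were seen, had 1.66 with an adjusted p of 0.0549, at 40.9 to 44.6 RPKM orally and 8.03 to 18.6 RPKM nasally.

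Between the nasal compartments 18 of these regulators were tested. In the posterior one 4 were higher, against 1.1% of all genes, with the largest values for Dlx3 (2.64, adjusted p = 0.0457), Fgfr3 (2.24, adjusted p = 0.00712) and Pth1r (1.63, adjusted p = 0.00387), the receptor of parathyroid hormone, and Bmp2 (-1.12, adjusted p = 0.0207) was lower, with a list median of 0.46 against 0.12 over all genes. Dlx3 and Fgfr3 passed the minimum only through the posterior nasal libraries. Between the anterior lateral and medial compartments 4 of 14 were called, all higher medially, against 1.08% of all genes, with the largest values for Tcf7 (-1.50, adjusted p = 0.0205), Bmp2 (-0.94, adjusted p = 0.00949) and Pth1r (-0.62, adjusted p = 0.0465). Between posterior and anterior, Pth1r (0.79, adjusted p = 0.0111) and Bmp2 (-0.73, adjusted p = 0.0039) were called of 15 tested, against 3.32% of all genes. None was called of 16 between the anterior oral and nasal compartments, of 15 between the posterior lateral and medial ones or of 18 for the oral-nasal difference, where 1, 1 and 3 passed the study's thresholds, against 1.44%, 1.12% and 2.38% of all genes.

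Of 15 other bone matrix genes, 10 were tested between the posterior oral and nasal compartments. Of these 1 was called, higher nasally, against 0.661% of all genes in this direction. It was Kazald1 (-2.66, adjusted p = 0.0202), a secreted protein of developing bone. Kazald1 stood at 9.49 to 14.0 RPKM nasally and 1.13 to 3.14 RPKM orally, so that it passed the minimum only through the nasal libraries. The list median was -0.28. Col1a1, the main collagen chain of bone, stood at 187 to 244 RPKM nasally and 139 to 237 RPKM orally, which overlapped. Of the genes of mature bone, in the posterior nasal libraries Bglap was at most at 0.824 RPKM and Sost was listed at 0, while Mepe and Dmp1 stood at 8.23 and 2.69 RPKM in replicate 1 and at most at 0.463 RPKM in the others. Between posterior and anterior libraries Col1a1 (0.46, adjusted p = 0.0319) and Fn1 (-0.34, adjusted p = 0.0108) were called of 9 tested, against 3.32% of all genes, and the other 5 comparisons called none of the 9 or 10 tested.

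Some cartilage markers were also higher in the posterior nasal compartment. The sum of the 9 markers was 157 to 216 RPKM in the posterior nasal libraries, 97.3 to 165 RPKM in the posterior oral and 87.2 to 151 RPKM in the anterior nasal ones. Of 7 tested between the posterior compartments, 2 were higher nasally, against 0.661% of all genes. These were Acan (-3.23, adjusted p = 0.0149), which passed the minimum only through the nasal libraries, and Sox6 (-2.71, adjusted p = 0.0383). Between the nasal compartments 3 of 7 tested were higher in the posterior one, against 1.1% of all genes. These were Sox6 (3.42), Col9a1 (2.46) and Sox5 (1.52), of which Sox6 and Col9a1 passed only through the posterior nasal libraries. Hapln1 had the opposite direction and was not called, at -1.06 (limma adjusted p = 0.138). Col2a1, the main cartilage collagen, overlapped at 30.9 to 51.4 RPKM nasally and 25.3 to 43.2 RPKM orally in the posterior palate, Col10a1 was at most at 4.06 RPKM in the posterior nasal libraries and Matn1 at most at 0.831 RPKM. In the anterior palate, where Runx2 was higher medially, the sum was 97.4 to 158 RPKM medially and 36.8 to 39.6 RPKM laterally, with Sox9, Sox5 and Acan higher medially, Sox5 and Acan having passed only through the medial libraries. The part of cartilage cells in the members' levels was not tested.

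Endothelium markers went the other way, with a sum of 52.3 to 79.3 RPKM in the posterior nasal and 118 to 179 RPKM in the posterior oral libraries. Emcn (1.58, adjusted p = 0.0401) was called, against 0.586% of all genes called higher orally. Of the 7 epithelium markers 3 were tested and 1 was called, against 0.661% of all genes called higher nasally. It was Krt18 (-1.61, adjusted p = 0.0284), which passed only through the nasal libraries. The sum of the 7 was 26.1 to 47.2 RPKM nasally and 18.5 to 27.9 RPKM orally. Sums of the osteoclast, macrophage, red cell, skeletal muscle, mesenchyme and nerve markers overlapped between the posterior oral and nasal libraries except for macrophages, at 46.6 to 84.4 RPKM nasally and 87.0 to 107 RPKM orally, and none of their genes was called. The mesenchyme markers, which the captured tissue should hold, summed to 394 to 712 RPKM in all 25 libraries.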

How the data were processed

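RNA from laser-captured palate compartments of E14.5 CD1 mouse embryos was sequenced in 25 libraries. The authors aligned reads to mm9 (TopHat is named in the submitters' processing notes), removed duplicated and multiply aligned reads, and computed the deposited RPKM values with GeneSpring 12.6.1. Reads removed as duplicates can compress the highest levels. Depth, 1.64 to 6.56 M reads a library, was inferred from steps in the deposited RPKM values and is below the average that the study states. Whole reads could not be recovered for these genes, so no count test was run.

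Here log2(RPKM + 0.1) was compared with limma 3.58.1 in R 4.3.3 (two-sided, Benjamini-Hochberg adjustment over all genes past the minimum). Groups came from the labels, and the study describes the replicates as biological. The step was tested on simulated data. The 10 genes and all lists were chosen with earlier results of these data known. Named beside the members were up to 3 called genes per list, direction and comparison, and the 5 genes most correlated with Ibsp, Sp7 and Runx2. The labels give no pairing of libraries, and the main fits used none. Same-numbered anterior oral and nasal libraries deviated together weakly (r = 0.239, 0.2145 and 0.1304 across genes). The posterior ones had 0.218, -0.0755 and 0.418, so these values do not establish a pairing. Alternatives were other pseudocounts, filters, scalings, fits, a run term, a replicate block and leaving out each library. Bases before gene starts came from RefSeq (GRCm38.p6), with stretches found for 7 of the 10 genes, and were not converted to mm9.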

Additional observations from a re-analysis of the deposited data

Results flagged for a closer look

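Alpl in the anterior nasal compartment had 1 library far from the others. Replicate 1 stood at 47.11 RPKM, against 31.5 to 33.0 RPKM in replicates 2 to 4, a gap of 0.898 of the whole range where 0.829 is the critical value for 4 samples. The anterior nasal compartment was the only group large enough for this test, which was made for each of the 10 genes, and chance alone gives such a gap in about 1 of 20 groups.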

How the results depend on the processing

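Of 14 called differences of single members, 204 values under alternatives held 140 past the threshold and 64 not, with no change of sign. The fits without 1 posterior nasal library gave no value for Panx3 and Smpd3, which were then below the minimum. Those fits of Panx3 and Smpd3 are not among the 204. Between the posterior oral and nasal compartments 7 members were called, 1 without a filter on low values, 3 with all 25 libraries in 1 fit, 2 with a run term added to that fit, and 2 to 5 when 1 library was left out (2 without posterior nasal replicate 1, 2 or 3, where Panx3 and Smpd3 no longer pass the minimum, and 4 without posterior oral replicate 3). For posterior against anterior nasal 6 were called, 3 without a filter, 0 with the run term and 1 to 7 without 1 library (1 without posterior nasal replicate 1 or 3, 2 without replicate 2). For anterior lateral against medial 1 was called, and 0 without a filter, in the fit of all libraries or with the run term, and 0 to 1 without 1 library. For posterior against anterior 0 were called, and 1 under quantile normalization (Sp7), in the fit of all libraries or with the run term (Runx2), with 0 to 1 without 1 library. Sp7 passed the minimum of that comparison through posterior libraries alone. For the oral-nasal difference 0 were called, and 1 with a pseudocount of 1 (Smpd3). Causes were not tested beyond the genes that left the minimum.

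By the study's thresholds the anterior oral-nasal count of 2 was 1 with a pseudocount of 1 or 0.01, a filter on the mean, quantile normalization or all libraries in 1 fit, and 1 to 2 without 1 library. The posterior lateral-medial count of 0 was 4 without a filter and 1 with the filter on the mean. The posterior-anterior count of 0 was 1 under a pseudocount of 1, no filter, the filter on the mean, quantile normalization, the fit of all libraries and the run term, and 0 to 1 without 1 library. The oral-nasal difference count of 5 was 1 to 6 without 1 library, with 5 rather than 7 members tested without a posterior nasal library.

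Uncalled values changed sign for Ibsp in anterior oral against nasal (-0.32 to 0.70 without 1 library), Alpl there (-0.83 to 0.24), Ifitm5 in anterior lateral against medial (-0.41 to 0.15, and 0.14 with the run term), Runx2 in posterior lateral against medial (-0.25 to 0.95), and in posterior against anterior for Ibsp (-0.44 with the run term, -0.96 without all posterior nasal libraries) and Ifitm5 (-0.35 without them, a setting chosen after seeing the data).

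With the replicate number as a block, anterior oral against nasal gave 0 calls, as without it. No pairing is known for any comparison (r of deviations -0.155 to 0.418). The block gave 5 of 7 calls between posterior oral and nasal and 2 of 7 (Panx3 and Smpd3) between the nasal compartments. Over all genes, posterior oral against nasal called 132 genes, 11 without a filter, 68 in the fit of all libraries and 15 with the run term. The nasal comparison called 235, 72, 201 and 33, and 47 with the block. Anterior lateral against medial called 262, 157, 31 and 0, and 157 with the block. Posterior against anterior called 286, 485, 369 and 143. For posterior lateral against medial 0 became 25 in the fit of all libraries, 2 under quantile normalization and 1 with the run term, and for anterior oral against nasal 6 and 4. For the oral-nasal difference 4 became 0 to 10. Levels well under 1 RPKM, as in most libraries for Dmp1, rest on few reads.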
